A study of Ovis aries with 9 samples.

Results

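The core circadian clock was read in sheep hepatocytes through 10 named genes: BMAL1, CLOCK, NPAS2, PER1, PER2, PER3, CRY1, NR1D1, NR1D2 and DBP. They were chosen by symbol, and all 10 were found among the 28837 gene rows of the count table. The question put to them was whether genes that peak at opposite times of day stood on opposite sides of their own average in the same stages. None of the 10 passed the test between virgin, gestation and lactation or along gestation, although the highest stage of a gene stood 1.66-fold to 4.96-fold over its lowest. In the virgin stage BMAL1 and NPAS2 were above their averages and 5 of the 6 PER, NR1D and DBP genes below. By contrast, BMAL1 was highest by CPM on days 100 to 120, the same stage as PER1 and NR1D2, although a smaller share of cells had a BMAL1 read there than in most stages.

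The molecular clock is a feedback loop. CLOCK, or its relative NPAS2, pairs with BMAL1 and switches on genes through DNA elements called E-boxes, among them the PER and CRY genes, NR1D1, NR1D2 and DBP, and the PER and CRY proteins then shut the pair off. NR1D1 and NR1D2 encode REV-ERB alpha and beta, repressors of BMAL1, NPAS2, CRY1 and NFIL3, so the PER, NR1D and DBP messages and the BMAL1 and NPAS2 messages peak in opposite parts of the day. In the liver the loop is set by feeding and by glucocorticoids, and PER1 also answers directly to acute stimuli.

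The cells came from livers of female sheep and were profiled with Smart-seq3xpress, which builds a separate full-length library from every cell. The 9 stages, with 1 summed sample each, were virgin ewes, gestation days 40 to 50, 50 to 70, 70 to 80, 90 to 100, 100 to 120 and 140 to 150, and days 7 and 15 after birth with lactation. All livers were taken after slaughter, kept in cold storage solution on the way to the laboratory and digested with collagenase, and hepatocytes were then picked by hand. The number of animals in a stage, the hour of slaughter and the feeding state are not given in the sources used here. A difference between stages therefore cannot be told apart from a difference in the hour of slaughter or between animals, and a p-value here reflects only how much these samples spread.

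A stage held 246 to 553 cells and 114865665 to 272944124 reads on named genes. Levels are given in CPM, the summed reads of a stage scaled to its TMM-adjusted library total, and intervals on a single stage are exact Poisson 95% intervals that cover counting error only. Of 10 hepatocyte markers 9 were matched, and their summed level ran from 68429 CPM on lactation day 15 to 178592 CPM on days 40 to 50. Marker lists of 7 other cell types summed to at most 33.6 CPM in any stage, with the macrophage marker CD68 listed at 0 throughout. The hepatocyte sum was lower in both lactation stages, at 68429 and 89199 CPM, than in the virgin stage (142950 CPM) and all gestation stages (143242 to 178592 CPM), and its part in the clock values was not tested.

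Per kilobase of gene length, DBP was the most abundant member, with a mean over the 9 stages of 15.8 CPM per kb. NR1D2 followed at 7.74, PER1 at 3.03, PER3 at 1.63 and PER2 at 1.32 CPM per kb. CLOCK stood at 1.06, BMAL1 at 0.928, NR1D1 at 0.823, NPAS2 at 0.609 and CRY1 at 0.256 CPM per kb. This order rests on the deposited gene lengths, which were not checked and run from 1851 bases for NR1D1 to 24363 for CRY1. In CPM alone NR1D2 (83.3) stood above DBP (32.4), and CRY1 (6.23) above NPAS2 (2.52) and NR1D1 (1.52). The levels rested on 106 reads (NPAS2, days 70 to 80) to 28374 reads (NR1D2, days 100 to 120) per gene and stage. NR1D1 overlaps THRA in the RefSeq gene order, CRY1 overlaps MTERF2 and 2 unnamed loci, and NPAS2 overlaps 2 unnamed loci. Since the sources used here do not say whether counting used strand, reads of these 3 members may be shared with their neighbours.

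The spread over stages differed among members. CLOCK varied least, with a highest stage 1.66-fold over its lowest, followed by DBP (2.0-fold), PER2 (2.20-fold) and BMAL1 (2.50-fold). PER3 spanned 2.76-fold, PER1 3.32-fold, NR1D1 3.47-fold, CRY1 3.80-fold, NR1D2 3.94-fold and NPAS2 4.96-fold. Over 8278 genes with a mean of at least 5 CPM and no stage at 0, the median ratio was 1.85, with quartiles at 1.57 and 2.44. CLOCK, DBP and PER2 thus fell within the middle range of these genes, and the other 7 members lay above its upper quartile. NPAS2 and NR1D1, with means of 2.52 and 1.52 CPM, lie below the 5 CPM cut and are set beside more abundant genes.

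**Figure D1:**
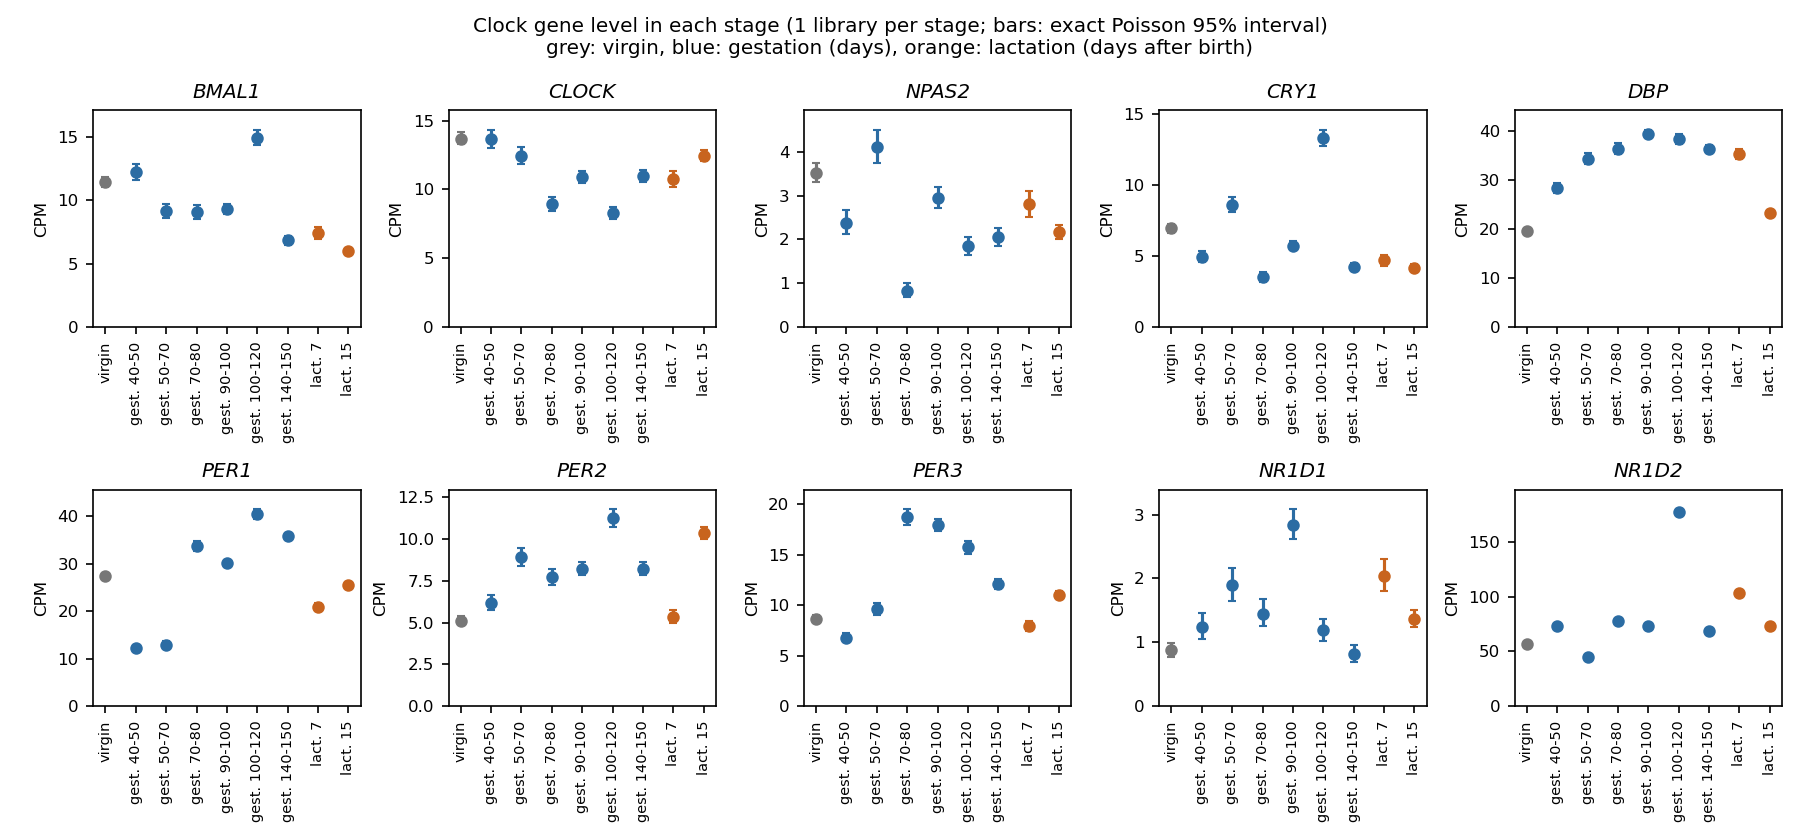
Level of each of the 10 clock genes in CPM (y axis, from 0) in the 9 stages (x axis, days of gestation or days after birth), with 1 point per stage and bars for the exact Poisson 95% interval. NR1D2 reached 178 CPM on days 100 to 120, and PER1 stood at 12.2 and 13.0 CPM in the first pair of gestation stages and at 30.1 CPM or more in the later ones.

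BMAL1 is the obligate partner of the activating pair. It stood at 11.4 CPM in the virgin stage, at 12.2, 9.12, 9.07, 9.30, 14.9 and 6.84 CPM in the gestation stages by day, and at 7.38 and 5.98 CPM on lactation days 7 and 15. Days 100 to 120 were the highest stage and lactation day 15 the lowest, while the gestation and lactation ranges overlapped through days 140 to 150. On days 90 to 100, 1 cell carried 26.6% of the BMAL1 reads, and the level without that cell was 6.85 CPM. In the order of the 9 levels, 4 of the 8 neighbouring pairs had overlapping intervals, among them the virgin stage with days 40 to 50 and the 3 stages between 50 and 100 days.

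CLOCK is the DNA-binding partner of BMAL1 and in most tissues cycles weakly. Its level was 13.7 CPM in the virgin stage, 8.26 to 13.7 CPM in gestation (median 10.9) and 10.7 and 12.4 CPM in lactation. Days 100 to 120 were its lowest stage, where BMAL1 was highest. For 6 of 8 neighbouring pairs in the order the counting intervals overlapped. After every cell had been thinned to 155164 reads, 20.9% of cells on days 100 to 120 had a CLOCK read, against 38.9% to 52.2% in the other stages (24.6% against 45.5% to 58.8% without thinning). NPAS2 and NR1D1, but no other member, also had their lowest thinned share there. Cells of that stage had the fewest genes read, a median of 5171 against 5766 to 6748 elsewhere, and the part of this in the CLOCK share was not tested.

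NPAS2, the CLOCK relative, was the least abundant of the 3 activators per kilobase. It was read at 3.53 CPM in the virgin stage, at 2.38, 4.12, 0.830, 2.95, 1.84 and 2.05 CPM in the gestation stages by day, and at 2.80 and 2.16 CPM on lactation days 7 and 15. Days 70 to 80 stood lowest, with an interval of 0.680 to 1.00 CPM that met no other stage. The values for days 50 to 70 and 90 to 100 rested on 1 cell each, which held 44.6% and 47.2% of the reads. Without those cells these levels were 2.30 and 1.57 CPM, and the virgin stage, at 3.23 CPM without its own top cell, became the highest of the 9. Among 90 gene and stage values these were the only 2 that moved by over 1.5 times when the top cell was left out, and 0 of 90 did so with library size as the only scaling or with equal weight per cell.

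PER1 encodes a repressor of the CLOCK and BMAL1 pair, and its transcription responds quickly to hormones. It stood at 27.5 CPM in the virgin stage, at 12.2, 13.0, 33.7, 30.1, 40.5 and 35.8 CPM in the gestation stages by day, and at 20.9 and 25.6 CPM on lactation days 7 and 15. The stages before day 70 were below all others, and the 4 later gestation stages were above all others. With library size as the only scaling, days 90 to 100 (28.6 CPM) were below the virgin stage (29.2 CPM) and close to lactation day 15 (28.4 CPM). Among the 8 neighbouring pairs in its order only days 40 to 50 and 50 to 70 had overlapping intervals. The share of cells with a PER1 read after thinning followed the same split within gestation, at 44.9% and 43.7% before day 70 and 71.2% to 84.0% later, while the virgin stage had 77.5%.

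PER2, a second period repressor, ran from 5.12 CPM in the virgin stage to 11.2 CPM on days 100 to 120, with a gestation median of 8.23 CPM (lowest 6.17) and with 5.35 and 10.4 CPM on lactation days 7 and 15. The lactation stages thus stood almost as far apart as the whole range. PER3, a period gene thought to be dispensable for the rhythm, was at 8.69 CPM in the virgin stage, at 6.79, 9.60, 18.7, 18.0, 15.7 and 12.1 CPM in gestation by day, and at 7.91 and 11.0 CPM in lactation. Its 4 highest levels were those of the 4 gestation stages after day 70, as for PER1. With library size as the only scaling, lactation day 15 (12.2 CPM) was above days 140 to 150 (11.8 CPM).

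CRY1 encodes a strong repressor of the activating pair, and its own transcription is delayed by REV-ERB. It was at 6.93 CPM in the virgin stage, at 4.94, 8.60, 3.50, 5.72, 13.3 and 4.21 CPM in gestation by day, and at 4.69 and 4.16 CPM in lactation. Days 100 to 120 stood 1.55-fold over the next stage, and the lactation levels lay inside the gestation range.

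NR1D1 encodes REV-ERB alpha, the repressor of BMAL1 that closes the second loop of the clock. It was at 0.873 CPM in the virgin stage, at 1.24, 1.90, 1.45, 2.84, 1.19 and 0.818 CPM in gestation by day, and at 2.04 and 1.36 CPM on lactation days 7 and 15. Days 90 to 100 were highest, and the virgin stage and days 140 to 150 were lowest with overlapping intervals. The neighbour THRA, whose reads may mix with those of NR1D1, ran from 16.7 to 26.1 CPM.

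NR1D2 encodes REV-ERB beta, the partly redundant relative of REV-ERB alpha. It stood at 57.2 CPM in the virgin stage, at 73.5, 45.2, 77.7, 73.2, 178 and 68.8 CPM in gestation by day, and at 104 and 72.9 CPM on lactation days 7 and 15. Days 100 to 120 were 1.72-fold over the next stage, and 7 of the 9 stages lay between 57.2 and 104 CPM. The top cell held at most 2.68% of NR1D2 reads in any stage, and the median cell on days 100 to 120 was at 149 CPM against 33.6 to 99.0 CPM elsewhere. The pair of REV-ERB genes did not share a highest stage. That of NR1D1, days 90 to 100, was not the highest of PER1, PER2 or CRY1. DBP was also highest on days 90 to 100, but on lactation day 7 with library size as the only scaling or equal weight per cell.

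DBP, a D-box transcription factor that carries clock timing to metabolic genes, was at 19.7 CPM in the virgin stage, at 28.4, 34.4, 36.5, 39.4, 38.4 and 36.4 CPM in gestation by day, and at 35.4 and 23.3 CPM on lactation days 7 and 15. The virgin stage was below all 8 others, and its interval of 19.2 to 20.2 CPM met none of theirs. The 4 gestation stages after day 70 held the 4 highest levels, but the intervals of days 140 to 150 and lactation day 7 overlapped. Lactation day 7 was the highest stage with library size as the only scaling (38.5 CPM) and with equal weight per cell (39.6 CPM).

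The first comparison asked whether the clock genes differed between gestation (n = 6) and lactation (n = 2). In the edgeR quasi-likelihood test 0 of 10 members passed an adjusted p under 0.05, where 0.0592% of the 20263 genes tested did. At an unadjusted p under 0.05 the members also numbered 0, against 9.40% of genes, DESeq2 called 0 members against 2.58% of genes, and limma on cell means 0 against 0.0987%. BMAL1 had the smallest p of the members, at 10.3 ± 2.87 CPM in gestation against 6.68 ± 0.987 in lactation (SD), a difference of 0.62 on the log2 scale (SE 0.29, edgeR, Benjamini-Hochberg adjusted p = 0.552). Its partner in the opposite-phase question, NPAS2, had a log2 fold change of -0.07 (SE 0.49), at 2.36 ± 1.11 against 2.48 ± 0.452 CPM. NR1D1 and NR1D2 had -0.11 (SE 0.48) and -0.04 (SE 0.42), and the 3 PER genes had 0.24 (SE 0.44), 0.10 (SE 0.29) and 0.51 (SE 0.37). Under scaling by library size alone the value for PER2 became -0.10. Among the members BMAL1 had the largest value. Positive values were found in 6 of the 10 members and 4 of the 6 PER, NR1D and DBP genes, beside 51.0% of all genes tested. With SEs of 0.29 to 0.48 for the PER and NR1D genes, whether they changed in the opposite way to BMAL1 cannot be judged.

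The second comparison set gestation against the virgin stage, a single sample whose spread is assumed to be that of the other groups. Again 0 of 10 members were called in edgeR, against 0.00494% of 20263 genes, and 0 in DESeq2 (0.563% of genes) and in limma (0.183%). DBP had an unadjusted p under 0.05 (4.45% of genes had), at 35.6 ± 3.93 CPM in gestation (SD, n = 6) and 19.7 CPM in the virgin stage, with a log2 fold change of 0.85 (SE 0.28). Its adjusted p was 1 in edgeR and 0.247 in DESeq2. NR1D1 had 0.85 (SE 0.69), PER2 0.72 (SE 0.40), PER3 0.64 (SE 0.50) and NR1D2 0.59 (SE 0.59). PER1 had 0.00 (SE 0.58), which became -0.13 under scaling by library size alone. On the other side NPAS2 had -0.58 (SE 0.62), CLOCK -0.34 (SE 0.28) and BMAL1 -0.16 (SE 0.36), with CRY1 at -0.05 (SE 0.60).

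The wider E-box and D-box class of genes known to peak near each other, the 6 members with TEF, HLF, CIART, BHLHE41 and USP2, had positive values in 11 of 11 genes (median log2 fold change 0.72), beside 54.8% of all genes (median 0.06). The opposite class of BMAL1, NPAS2, CLOCK, NFIL3 and CRY1 had negative values in 4 of 5 (median -0.16). Over all settings tried, 9 to 11 of the 11 and 0 to 2 of the 5 were positive. The count depends on the genes listed. BHLHE40, an E-box gene outside the class and added after its values were seen, had -0.72 (SE 0.65). Of 28 other clock and clock-output genes tested, among them TEF, HLF, CIART, BHLHE41 and USP2, 18 were positive and 10 negative (median 0.15). The values of a class share the same virgin sample, so they are 1 observation of that sample rather than 11 or 5.

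Lactation against virgin used the same virgin sample, and 0 of 10 members were called, against 0.00% of 20263 genes in edgeR. The unadjusted count was also 0 of 10, against 4.94% of genes, as were the counts of DESeq2 (0.474% of genes) and limma (0.133%). BMAL1 had -0.78 (SE 0.41) and NPAS2 -0.51 (SE 0.72), NR1D1 had 0.96 (SE 0.76), NR1D2 0.63 (SE 0.65), PER2 0.62 (SE 0.44), DBP 0.58 (SE 0.30) and PER3 0.12 (SE 0.54) as log2 fold changes. PER1 went the other way from the remaining members of its class, at -0.24 (SE 0.65). Of the wider E-box and D-box class 9 of 11 genes were positive (median 0.58) and of the opposite class 4 of 5 were negative (median -0.51), beside 53.4% of all genes positive, with the virgin sample shared with the comparison before. BHLHE40, outside the class, had 0.01 (SE 0.78).

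**Figure D2:**
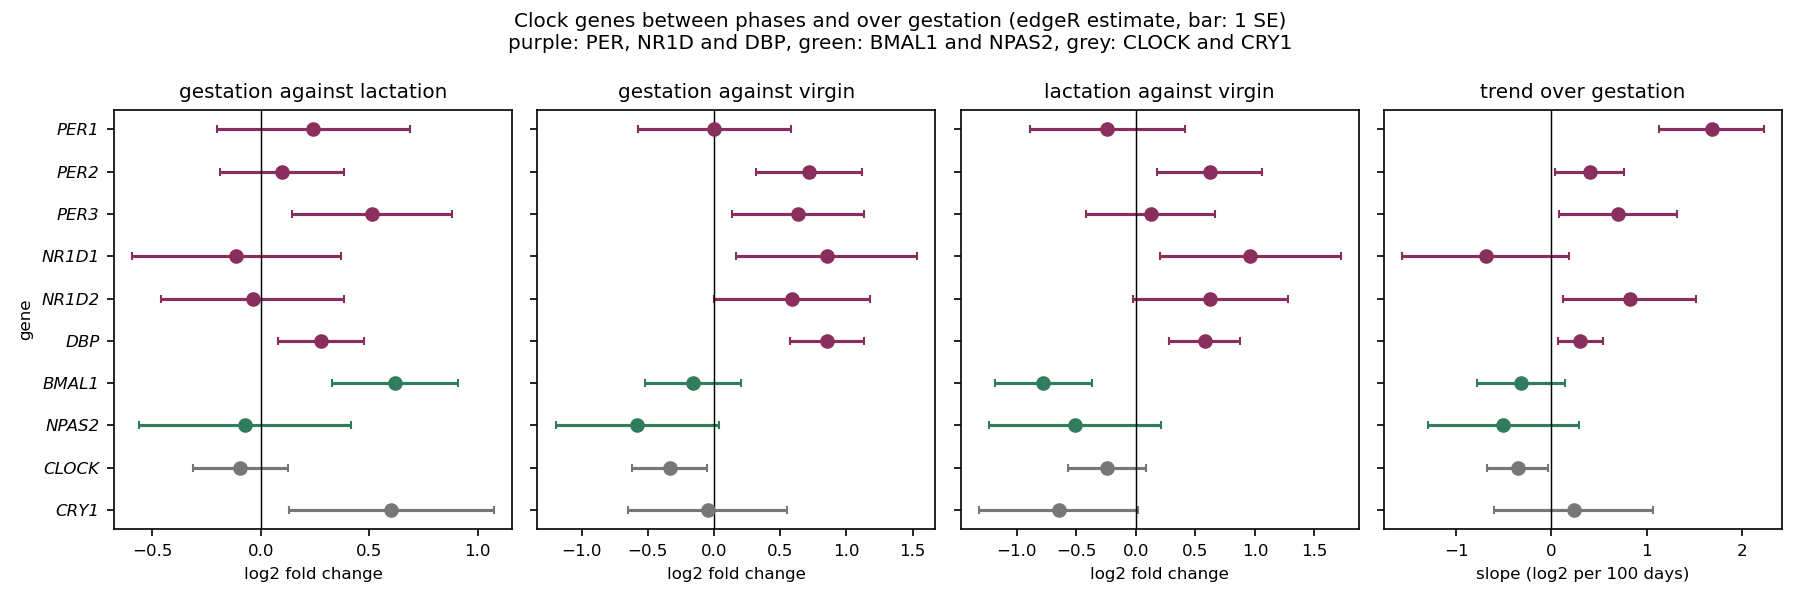
Log2 fold change of each clock gene in the 3 phase comparisons, and slope per 100 days over the 6 gestation stages (x axes), with bars of 1 SE from edgeR. In the comparisons with the virgin stage, BMAL1 and NPAS2 lie left of 0 and DBP, NR1D1, NR1D2, PER2 and PER3 lie right of it, while none passed the test.

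Within gestation the trend over the midpoints of the 6 day ranges asked whether the clock genes moved steadily with time. In edgeR 0 of 10 members were called, against 0.0336% of the 17848 genes tested, and 0 were in DESeq2 (1.70% of genes) and limma (0.0952%). PER1 had the steepest slope of the members, at 1.68 log2 units per 100 days (SE 0.55), and was the 1 member with an unadjusted p under 0.05, as 6.62% of genes had. Its adjusted p was 0.578 in edgeR and ran down to 0.0793 (DESeq2) over the alternatives, with slopes from 1.22 to 2.75 when each stage was left out in turn. The slopes of NR1D2 (0.82, SE 0.70), PER3 (0.70, SE 0.62), PER2 (0.40, SE 0.36) and DBP (0.30, SE 0.24) were positive as well, and NR1D1 had -0.69 (SE 0.87). BMAL1 (-0.32, SE 0.46), CLOCK (-0.35, SE 0.32) and NPAS2 (-0.51, SE 0.79) had negative slopes, of which that of BMAL1 turned to 0.40 without days 140 to 150 and was -0.70 without days 100 to 120.

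Stage by stage, each gene was set against its own mean of log2(CPM + 1) over the 9 stages. In the virgin stage BMAL1 and NPAS2 were both above their means and 1 of the 6 PER, NR1D and DBP genes was (PER1). Days 40 to 50 had BMAL1 above, NPAS2 just below and 0 of the 6 above. With equal weight per cell or with the top cell left out, both BMAL1 and NPAS2 were above there, again with 0 of the 6. On days 70 to 80, 5 of the 6 were above and neither BMAL1 nor NPAS2. That count rested on PER1 (0.43), PER3 (0.67), DBP (0.20) and NPAS2 (-0.89), since PER2, NR1D1, NR1D2 and BMAL1 lay at their means, at 0.01, -0.01, 0.00 and -0.03. With equal weight per cell it was 4 of the 6 with 1 of BMAL1 and NPAS2, and scaled by library size alone it was 6 with 1. On days 140 to 150, 4 of the 6 were above and neither activator, but NR1D1 (-0.44) and NR1D2 (-0.17) lay on the same side as BMAL1 (-0.39) and NPAS2 (-0.15).

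The other stages did not divide this way in the main setting. On days 90 to 100, 5 of the 6 genes were above their means together with both BMAL1 and NPAS2, although neither activator was above once the top cell of each gene was left out. On days 100 to 120, 5 of 6 were above (all but NR1D1) together with BMAL1, NFIL3 and CRY1, while NPAS2 (-0.25) and CLOCK (-0.40) were below. Days 50 to 70 and lactation day 7 had 3 of 6 above with 1 of BMAL1 and NPAS2. Lactation day 15 had 2 of 6 with neither, and 5 of 6 with NPAS2 when library size was the only scaling.

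**Figure D3:**
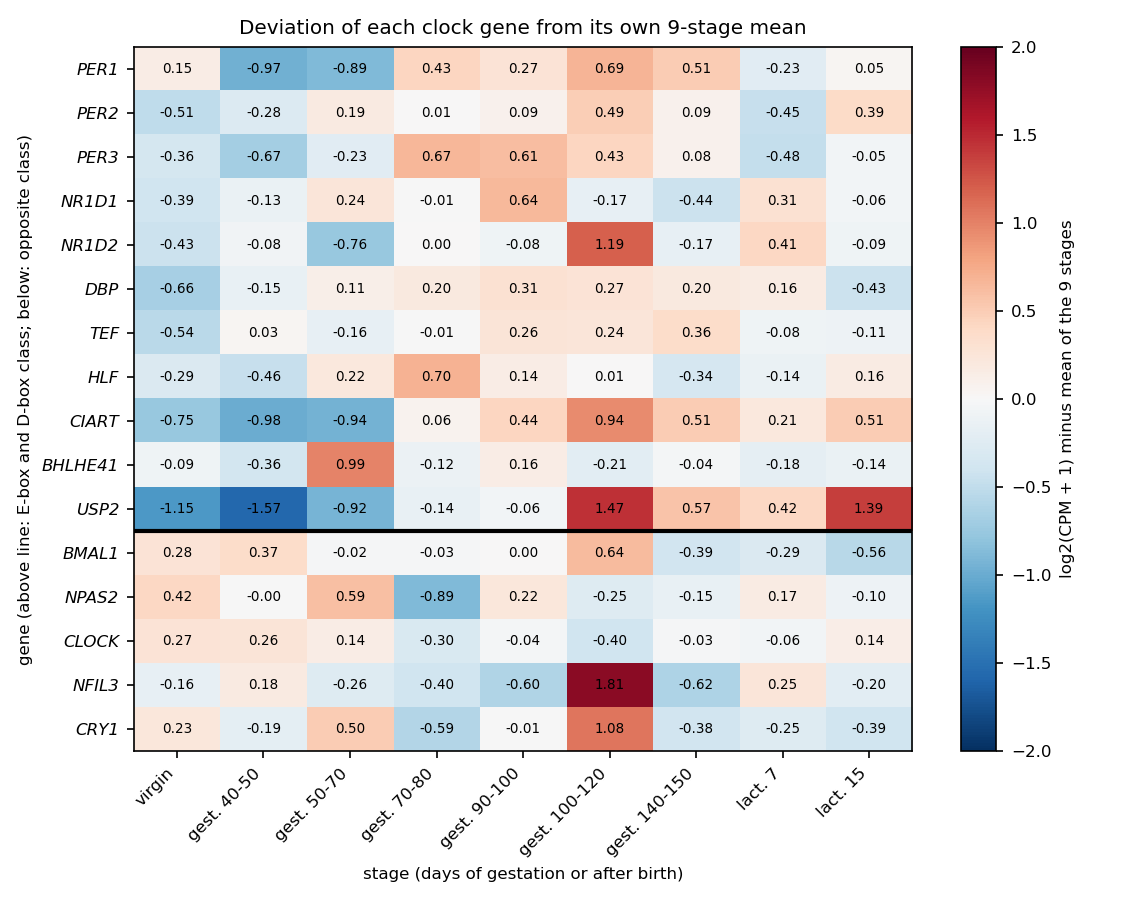
Deviation of log2(CPM + 1) from the mean over 9 stages for the 11 genes of the E-box and D-box class (above the line) and the 5 of the opposite class (below it), by stage on the x axis. The virgin stage is below average for 10 of the 11 and above it for 4 of the 5, days 70 to 80 are below average for all of the 5, and days 100 to 120 are above average in 9 of the 11 and in 3 of the 5. BHLHE40, an E-box gene that is not drawn, was at 16.9 CPM in the virgin stage, with a 9-stage mean of 12.5 CPM.

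The opposite-phase pairs were then compared over all 9 stages. NR1D1 and its target BMAL1 had a Pearson r of -0.15 (two-sided exact permutation p = 0.708) and a Spearman rho of -0.13 (exact p = 0.744) over n = 9 stages. Without days 90 to 100 and 140 to 150, the stages farthest from the median of NR1D1, r was -0.54, and over the 6 gestation stages alone it was 0.00. Over the 12 pairs of a PER, NR1D or DBP gene with BMAL1 or NPAS2, r was negative in 8, with a median of -0.10. The pairs with BMAL1 lay between -0.15 and 0.37, the latter for NR1D2 (exact p = 0.337, rho 0.25, exact p = 0.521), and the r of that pair was -0.37 without days 50 to 70 and 100 to 120. Adjusted over the 12 pairs by Benjamini-Hochberg, the smallest exact p was 0.854 for r and 0.514 for rho.

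The largest negative value was that of PER3 with NPAS2, at r = -0.56 (exact p = 0.112) and rho = -0.52 (exact p = 0.162), and r was -0.51 without days 70 to 80 and 90 to 100. With the top cell of each gene left out in each stage, an alternative added after seeing the data, r for PER3 with NPAS2 was -0.80 (exact permutation p = 0.00535, 0.0643 adjusted over the 12 pairs) and rho -0.87 (exact p = 0.00451, adjusted 0.0541). In the same setting 11 of the 12 pairs were negative, with a median of -0.21. Leaving out days 100 to 120 in place of the top cells also gave 11 negative pairs of 12, with a median of -0.28, and NR1D2 with BMAL1 then had r = -0.31. Leaving out that 1 stage, where BMAL1 and 5 of the 6 genes were above their means, turned the pairs of BMAL1 with PER3, NR1D2 and DBP from positive to negative.

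Pairs within a class leaned the other way. Of the 16 pairs among the PER, NR1D and DBP genes or between BMAL1 and NPAS2, 14 had a positive r. PER1 and PER3 had r = 0.74 (exact p = 0.0235) and rho = 0.78 (exact p = 0.0172), and r was 0.71 without the stages before day 70. CLOCK, which was placed in neither side of the 12 pairs, had negative values with PER3 (r = -0.76, exact p = 0.0200; rho = -0.65, exact p = 0.0666) and with DBP (r = -0.71, exact p = 0.0302; rho = -0.82, exact p = 0.0108). Without the virgin stage and days 100 to 120 these were -0.74 and -0.62. CLOCK with NR1D2 had r = -0.73 (exact p = 0.0211) and rho = -0.77 (exact p = 0.0214), but r was -0.37 without the same stages. BMAL1 and CRY1, both repressed through REV-ERB elements, had r = 0.70 (exact p = 0.0344) and rho = 0.75 (exact p = 0.0255), and 0.35 without days 100 to 120 and lactation day 15. Over all 45 pairs of members none passed adjustment, the smallest adjusted values being 0.310 for r and 0.280 for rho.

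**Figure D4:**
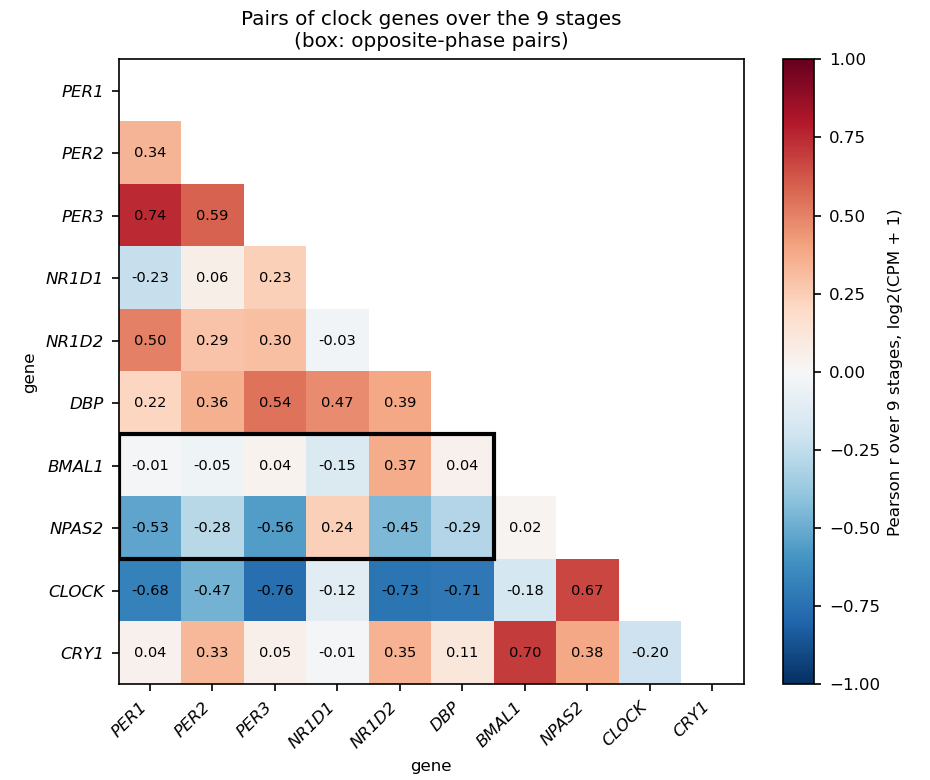
Pearson r of log2(CPM + 1) over 9 stages for all 45 pairs of clock genes, with genes on both axes and the 12 opposite-phase pairs in the box. Within the box r runs from -0.56 (PER3 with NPAS2) to 0.37 (NR1D2 with BMAL1), and the row of CLOCK is negative with all 6 PER, NR1D and DBP genes.

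Days 100 to 120 were the highest stage for 5 of the 10 members (BMAL1, PER1, PER2, CRY1 and NR1D2) and the lowest for CLOCK. Of 8278 genes, 14.8% were highest in that stage, and with library size as the only scaling or equal weight per cell 4 members were. PER2 was then highest on lactation day 15, at 11.5 against 10.3 CPM by library size and 12.6 against 10.1 CPM by equal weight. NFIL3, a D-box repressor that opposes DBP and is itself repressed by REV-ERB, was at 183 CPM there and at 33.3 to 61.4 CPM in the other 8 stages. The E-box target CIART, a repressor of the activating pair, was also highest there at 4.76 CPM, against 0.514 to 3.27 CPM elsewhere. USP2, a clock-driven deubiquitinase, was at 15.6 CPM there, at 14.7 CPM on lactation day 15 and at 1.03 to 7.89 CPM in the remaining stages. The summed level of 13 immediate early genes, which mark an acute response of cells, was 357 CPM in that stage, against 138 to 303 CPM in the others, with ATF3 at 30.9 CPM and JUN at 26.0 CPM. Of the 13, JUN, JUNB, ATF3, IER2, KLF6 and ZFP36 were highest there, and the other 7, among them FOS, FOSB, EGR1 and MYC, were highest in another stage. Their part in the clock values of that stage was not tested.

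PER1 and the targets of the glucocorticoid receptor were set side by side because PER1 is one of them. FKBP5, a standard readout of glucocorticoid action, was at 1.75, 3.89, 10.2, 4.31, 32.4 and 43.3 CPM in the gestation stages by day, at 19.3 CPM in the virgin stage and at 5.05 and 38.6 CPM on lactation days 7 and 15. TSC22D3, another target, was at 49.2 and 62.2 CPM before day 70 and at 94.1 to 153 CPM in the later gestation stages. Both genes and PER1 were therefore lowest within gestation before day 70, with FKBP5 on days 90 to 100 only a little above. Of the other 5 listed targets, ZBTB16 had a slope of 1.70 (SE 0.44, adjusted p = 0.385, edgeR), TAT, ERRFI1 and PCK1 had slopes of 0.42, 0.23 and 0.19, and SGK1 had -0.59 (SE 1.03). The slopes over gestation were 4.57 (SE 0.86, adjusted p = 0.182, edgeR) for FKBP5 and 1.00 (SE 0.56, adjusted p = 0.872, edgeR) for TSC22D3. The summed level of all 7 glucocorticoid targets, which PCK1 dominates, ran from 2878 CPM on lactation day 7 to 4341 CPM on days 90 to 100 and did not follow PER1. Whether glucocorticoid exposure moved PER1 was not tested.

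**Figure D5:**
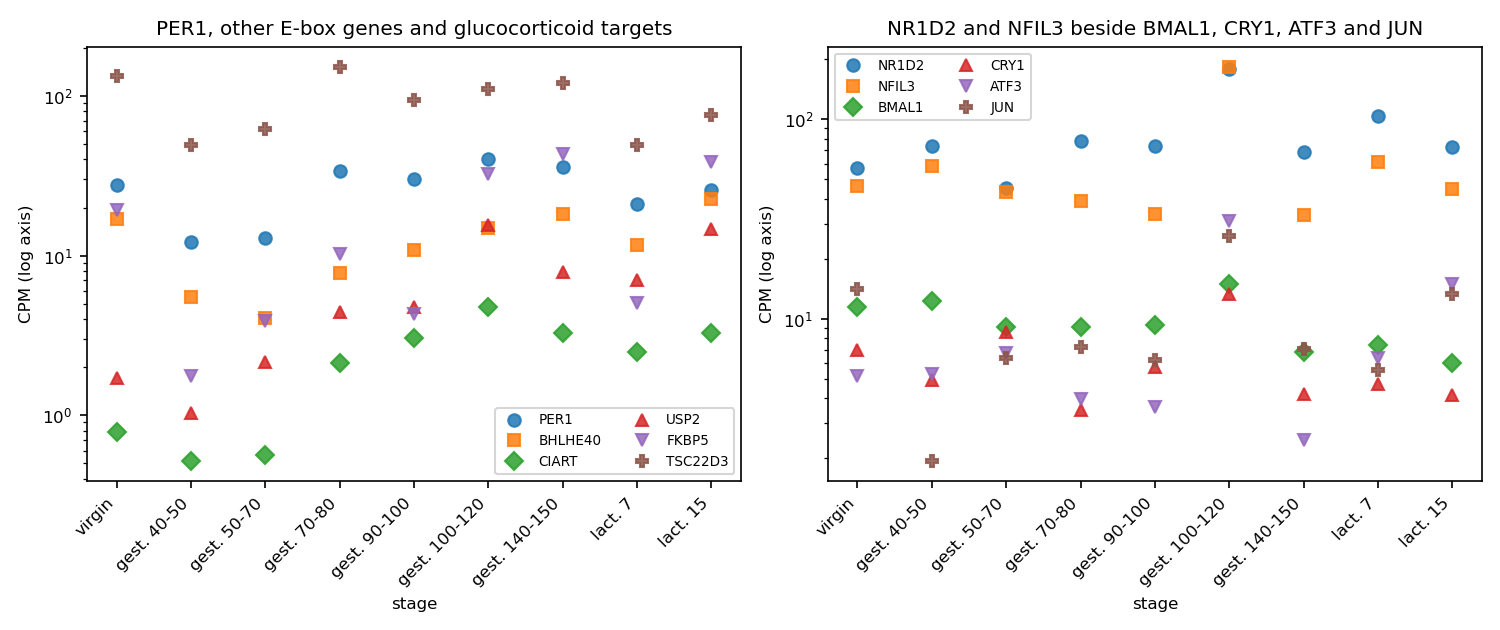
Levels in CPM (log y axis) by stage for PER1 with BHLHE40, CIART, USP2, FKBP5 and TSC22D3 (left) and for NR1D2 with NFIL3, BMAL1, CRY1, ATF3 and JUN (right). On the left most genes are lower before day 70 than later in gestation, and on the right NR1D2 (178 CPM), NFIL3 (183 CPM), ATF3 (30.9 CPM) and JUN (26.0 CPM) have their highest level on days 100 to 120.

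Beyond the members, 32 other genes of the clock and its output were listed, of which 30 were matched and 28 tested between phases (27 in the trend). In edgeR 0 of them were called in any of the 4 comparisons. Of the genes with the highest level, ALAS1, the entry enzyme of heme synthesis, ran from 152 CPM in the virgin stage to 738 CPM on days 70 to 80. RORA, the activator that competes with REV-ERB, ran from 101 CPM on lactation day 7 to 217 CPM on days 140 to 150, with a slope of 0.79 (SE 0.25, adjusted p = 0.563, edgeR). The REV-ERB corepressor NCOR1 stayed between 32.2 and 54.7 CPM. HLF, a D-box factor like DBP, ran from 43.0 to 97.2 CPM and PPARGC1A, a coactivator of gluconeogenesis, from 23.7 to 105 CPM. LPIN1, a phosphatidate phosphatase, ran from 9.98 to 73.0 CPM, with its highest level on days 100 to 120.

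At an unadjusted p under 0.05 the trend over gestation named 5 of these 27 genes, all with positive slopes, where 6.62% of all genes had such a p. BHLHE40 and NOCT were chosen after their values were seen. BHLHE40, an E-box repressor that answers to hormones and feeding, had a slope of 2.12 (SE 0.38, adjusted p = 0.147, edgeR), at 5.51 and 4.09 CPM before day 70 and 7.73, 10.9, 14.9 and 18.3 CPM later. USP2 had 3.53 (SE 0.97, adjusted p = 0.426, edgeR) and CIART 3.29 (SE 1.01, adjusted p = 0.528, edgeR). These 3 genes were called by DESeq2 (adjusted p = 0.000283, 0.00121 and 0.0103), which called 1.70% of all genes in the trend. NOCT, a rhythmic phosphatase of dinucleotide cofactors, was at 17.7 CPM in the virgin stage, 4.06 to 18.3 CPM in gestation, and 1.07 and 3.53 CPM in lactation, below every other stage. Its log2 fold change between gestation and lactation was 2.12 (SE 0.64, adjusted p = 0.317, edgeR), and DESeq2 called it (adjusted p = 0.00739).

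The genes whose stage pattern was most like that of BMAL1, ranked by Pearson r over 9 stages among 8281 genes, were TTC39C (0.93), PON1 (0.93), LZIC (0.91), PARP8 (0.90) and HAPSTR1 (0.90). The most opposite were MFSD8 (-0.95), PUS7L (-0.94), MAT2A (-0.92), SFXN1 (-0.91) and TADA2A (-0.90). No clock gene was among them. CRY1 was the closest of the clock genes, with 1.90% of genes having a higher r with BMAL1, followed by NFIL3 (r = 0.65, 3.15% of genes higher), and NR1D1 stood in the middle of the ranking, with 37.3% of genes having a lower r. For NR1D1 itself the most alike were VPS37A (0.90), TTYH1 (0.89), FCER1G (0.88), DIP2C (0.87) and HDAC4 (0.86), and the most opposite SLC33A1 (-0.93), AMMECR1 (-0.89), MTF1 (-0.88), FAM114A2 (-0.87) and DLG2 (-0.85). Among the clock genes DBP was closest to it (r = 0.47, 5.52% of genes higher). These values share the 9 samples and describe them only.

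Cell by cell the members were read unevenly. After thinning, a read of NR1D2 was found in 79.2% to 94.8% of cells by stage and of DBP in 60.3% to 85.4%, but one of NPAS2 in 6.76% to 20.4% and of NR1D1 in 4.71% to 16.3%. BMAL1 went from 47.6% of cells in the virgin stage to 24.6% on lactation day 15. On days 100 to 120, its highest stage by CPM, 30.3% of cells had a BMAL1 read, below every other stage but lactation day 15. Days 90 to 100 were close to it at 30.4%, and no order of stages is read from these shares. The Spearman correlation across the cells of a stage, averaged over stages, lay between -0.07 and 0.12 for all 45 pairs of members, with a median of 0.02 for the 12 opposite-phase pairs and 0.08 for the 16 pairs within a class. These correlations were weak for both kinds of pair, also for NR1D2 with DBP (0.10), whose reads were found in most cells. The reason was not tested.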

How the data were processed

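The deposited table holds whole-number read counts per gene and cell, not normalized, and these counts were used throughout. The gene length in bases is the authors' deposited column in the same table. The tools named in the submitters' processing notes are Trimmomatic 0.39, HISAT2 2.1.0 and also featureCounts 2.0.1. The build, the strand setting and any collapsing of molecular identifiers are not given in the sources used here. Of 28861 rows, 24 named no gene (0.474% of reads) and stayed out of library sizes and tests. Each cell's stage was read from its column name and was the same in the deposited cell sheet for 3404 of 3404 cells. No cell was left out, none was clustered, and no cell barcode name was shared between stages. Doublets were not called, since cells were picked by hand.

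Counts were summed per stage and fitted with edgeR 4.0.16 in R 4.3.3 (filterByExpr, TMM, glmQLFit, glmQLFTest, Benjamini-Hochberg over all genes tested, threshold 0.05), with 1 virgin, 6 gestation and 2 lactation samples in 1 fit. The trend used the midpoints of the 6 gestation ranges, per 100 days. Pairs were compared on log2(CPM + 1) with two-sided exact permutation tests over all 362880 pairings of 9 stages. For shares of cells, each cell was thinned to the 10th percentile of reads, 155164, which kept 3063 cells and left out 341. Alternatives were DESeq2 1.42.0, limma 3.58.1 on the mean CPM over cells (pseudocount 0.5), library size as the only scaling, no filter on low counts, the top cell left out, and each stage left out in turn. On simulated counts with log2 changes of 1, 2 and 3, edgeR called 17.9%, 94.0% and 97.0% of changed genes between gestation and lactation (19505 genes fitted). The shares were 5.97%, 56.7% and 93.9% between gestation and virgin, and 1.49%, 23.9% and 81.8% in the trend (17827 genes). False calls numbered 6, 5 and 4. The changed genes were drawn from those with a mean of at least 5 CPM, which NPAS2 and NR1D1 do not reach.

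The members, the gene lists and the tests were chosen with earlier results of these data known. All members are named. Other clock genes are named from the listed E-box and D-box class and opposite class, or as the 8 of the wider list with the highest mean CPM, of which 1 is not reported here, and any other is said to be chosen after seeing its values. Symbols were matched in the RefSeq gene table, which was used for names and neighbouring genes only. Tables and figures were made in Python 3.11.15 (pandas 2.3.3, numpy 2.4.6, matplotlib 3.10.9, SciPy 1.17.1).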

Additional observations from a re-analysis of the deposited data

Results flagged for a closer look

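Among the 6 gestation stages, 3 of 36 clock and clock-output genes tested had 1 stage that stood far from the other 5, by a gap to the nearest stage that took a larger share of the whole range than Dixon's 95% critical value allows. About 5% of such groups are marked by chance if values are normally spread and independent. The share marked among all genes is not given here, so the count cannot be read as particular to the clock genes. All 3 were highest on days 100 to 120, the highest of the 9 stages for 14.8% of 8278 genes. NR1D2 stood at 177.8 CPM there, with the next gestation stage at 77.7 CPM and the lowest at 45.2 CPM. NFIL3 stood at 183.4 CPM, with the next at 58.5 CPM and the lowest at 33.3 CPM. SIRT1, a deacetylase that binds the CLOCK and BMAL1 pair, was chosen by this measure alone, at 16.3 CPM with the next at 11.8 CPM and the lowest at 9.45 CPM. The genes share that 1 sample, so the 3 marks are not independent.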

How the results depend on the processing

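Over 470 alternative values of the 10 members in the 4 comparisons, 0 passed an adjusted p under 0.05 and 31 changed direction. Counts over all genes depended more on the method. Against 12, 1, 0 and 6 genes called by edgeR between gestation and lactation, gestation and virgin, lactation and virgin, and in the trend, DESeq2 called 523, 114, 96 and 303 and limma with equal weight per cell 20, 37, 27 and 17. Library size as the only scaling gave 22 between gestation and lactation. With no filter on low counts it was 21, 5, 0 and 17. Leaving out each stage in turn gave 1 to 45, 1 to 2, 0 to 1 and 0 to 9 genes. Between gestation and lactation the 45 came without lactation day 7, and 1 or 2 genes were left without lactation day 15 or without any gestation stage but days 140 to 150. In the trend 0 to 2 were left without days 40 to 50, 50 to 70, 90 to 100 or 140 to 150.

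Scaled by library size alone, PER2 had -0.10 between gestation and lactation and PER1 -0.13 between gestation and virgin. With no filter PER1 had -0.00668 in the latter. In limma PER2 had -0.16, PER1 -0.37 and the slope of CRY1 -0.19. With each stage left out in turn, values between gestation and lactation ran from -0.20 to 0.0143 for CLOCK, -0.30 to 0.13 for NPAS2, -0.30 to 0.65 for PER2, -0.38 to 0.21 for NR1D1 and -0.38 to 0.24 for NR1D2. Against virgin, those of gestation ran from -0.16 to 0.13 for PER1 and -0.38 to 0.0867 for CRY1, and those of lactation from -0.13 to 0.34 for PER3. Slopes ran from -0.70 to 0.40 for BMAL1, -0.75 to 0.0547 for NPAS2, -0.0531 to 1.97 for PER3, -0.53 to 1.46 for CRY1 and -1.41 to 0.55 for NR1D1. The causes were not tested. NR1D1 with BMAL1 kept a negative r in every alternative (-0.40 to -0.03 with each stage left out) but that of the 6 gestation stages alone (0.000200).

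The labels give 1 sample per stage and no number of animals, so a difference of the size seen between neighbouring stages has no replicate check, and no hour of slaughter was at hand to set beside the clock genes. The virgin sample could not be left out of its own comparisons. NPAS2 and NR1D1 rest on few reads. No paired analysis was possible because the labels give the stages no replicate numbers and each stage is 1 sample.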

Other observations

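NR1D2 was added as an anchor for stage likeness after its values were seen. Ranked by Pearson r over 9 stages among 8281 genes, its pattern was most like those of ABTB2 (0.93), CDKN2AIP (0.92), INTS4 (0.91), FNIP1 (0.91) and CHCHD7 (0.90), and NFIL3 was the closest clock gene (0.82, with 0.374% of genes higher). Both NR1D2 and NFIL3 were highest on days 100 to 120, and these values were not computed without that stage. CLOCK lay near the other end of the ranking, at -0.73, with 1.30% of genes lower. As background, REV-ERB beta, the product of NR1D2, is known as a repressor of NFIL3.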
